A study of Homo sapiens with 6 samples.

Results

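ATP-binding cassette (ABC) transporters were examined in U251 glioma cells that overexpressed PARK2. The members are the genes whose symbol is ABC, a subfamily letter from A to G and a number, and which had a probe set naming no other gene. These came to 42 of 19775 named genes and were read by 96 probe sets. U251 is an established human cell line from a malignant astrocytic tumour, and PARK2 encodes parkin, an E3 ubiquitin ligase known for its part in the removal of damaged mitochondria. The PARK2 group (3 arrays) carried PARK2 overexpression and the control group (3 arrays) carried GFP overexpression. The cells of both groups had gone through virus infection and puromycin selection, so the control shares the infection and the drug. The labels call the replicates biological but do not say that they came from separate infections or cultures, nor whether each line was a clone or a pool. The p-values therefore measure the spread between these arrays, which may be technical. Total RNA was hybridised to Affymetrix arrays, and each value is an intensity, the brightness of a probe set on a linear scale.

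ABC transporters use ATP bound at paired nucleotide-binding domains to move a substrate across a membrane. Members of the B, C and G subfamilies expel drugs and glutathione or glucuronide conjugates, and in brain they are known for drug exclusion at the blood-brain barrier and for drug resistance of glioma. Most A and G members handle cholesterol, phospholipids and other lipids, some B members sit in mitochondria, and D members carry fatty acyl groups or vitamin B12 in peroxisomes and lysosomes. The E and F members have no membrane domain and act in translation.

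The cell type named in the labels was checked against its markers. Of 12 astrocytic and glioma markers 10 were above the limit for testing, and AQP4 and OLIG2 were not; their summed intensity was 26448 to 31587 in the control arrays and 28591 to 29584 in the PARK2 arrays. These sums are mostly VIM, CD44 and SOX2: S100B (-1.39) and SLC1A3 (-0.72) were lower, and GFAP (0.53) and SOX2 (0.30) higher, in PARK2 cells. Markers of other cell types were also read: the summed intensity of 6 neuronal markers ranged from 4140 to 4594 among control arrays and from 5815 to 6233 among PARK2 arrays, with 4 above the limit and RBFOX3 and STMN2 under it. That sum is mostly TUBB3 (0.48, called higher, as were SYT1 at 2.50 and SNAP25 at 1.26), and MAP2 at -0.26 did not pass. For 5 epithelial markers, 2 of them above the limit, the sums ran from 210.0 to 316.1 among control and from 130.8 to 138.1 among PARK2 arrays; KRT18 was lower (-1.12) and KRT8 at -0.02 did not pass. The limit was passed by 1 of 5 microglial, 2 of 6 endothelial and 3 of 3 oligodendrocyte markers, whose sums overlapped between the groups. The part of these differences in the ABC results was not tested. Array medians lay between 16.3 and 19.3, and the ratio of 3′ to 5′ actin probe sets, a sign of RNA quality, ranged from 3.83 to 5.31 among control arrays and from 3.53 to 5.66 among PARK2 arrays. The mean intensity was also taken with 2% of probe sets left out at each end. It was 169.4, 149.4 and 138.1 in the control arrays and 141.7, 149.7 and 155.8 in the PARK2 arrays. Correlations over tested genes ranged from 0.989 to 0.992 for arrays of the same group and from 0.959 to 0.961 for arrays of different groups.

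Each gene was represented by its brightest probe set, and 29 of the 42 members were bright enough to be tested. Among these 29, 8 were higher and 2 were lower in PARK2 cells at an adjusted p under 0.05 (limma with an intensity trend, Benjamini-Hochberg adjustment over all 13720 tested genes). The 8 include ABCA8, whose control mean was under the limit for testing. The members called made up 34.5% of those tested, against 28.8% of all tested genes. In the higher direction the shares were 27.6% of members and 13.3% of all genes, and in the lower direction 6.9% and 15.6%. The groups did not overlap for 11 members in the higher and 3 in the lower direction, where 18.3% and 21.1% of all tested genes were so separated (39.5% in all). The median log2 fold change (PARK2 minus control, on log2 of intensity plus 16) was 0.09 over the tested members and -0.0026 over all tested genes, and 16 of the 29 values were positive. The count of 8 higher members was 5 when control replicate 2, PARK2 replicate 2 or PARK2 replicate 3 was left out, and also 5 when arrays were blocked by replicate number, because ABCC1, ABCC4 and ABCF3 missed the threshold in each of these fits. The share of all tested genes called higher fell as well, from 13.3% to 11.3% with the block. It was 9.25% without control replicate 2, 9.29% without PARK2 replicate 2 and 8.8% without PARK2 replicate 3. The added 16 shrinks the fold change of dim probe sets, so differences below are on that scale. In bulk RNA a large change in some cells and a smaller change in all of them cannot be told apart.

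**Figure D1:**
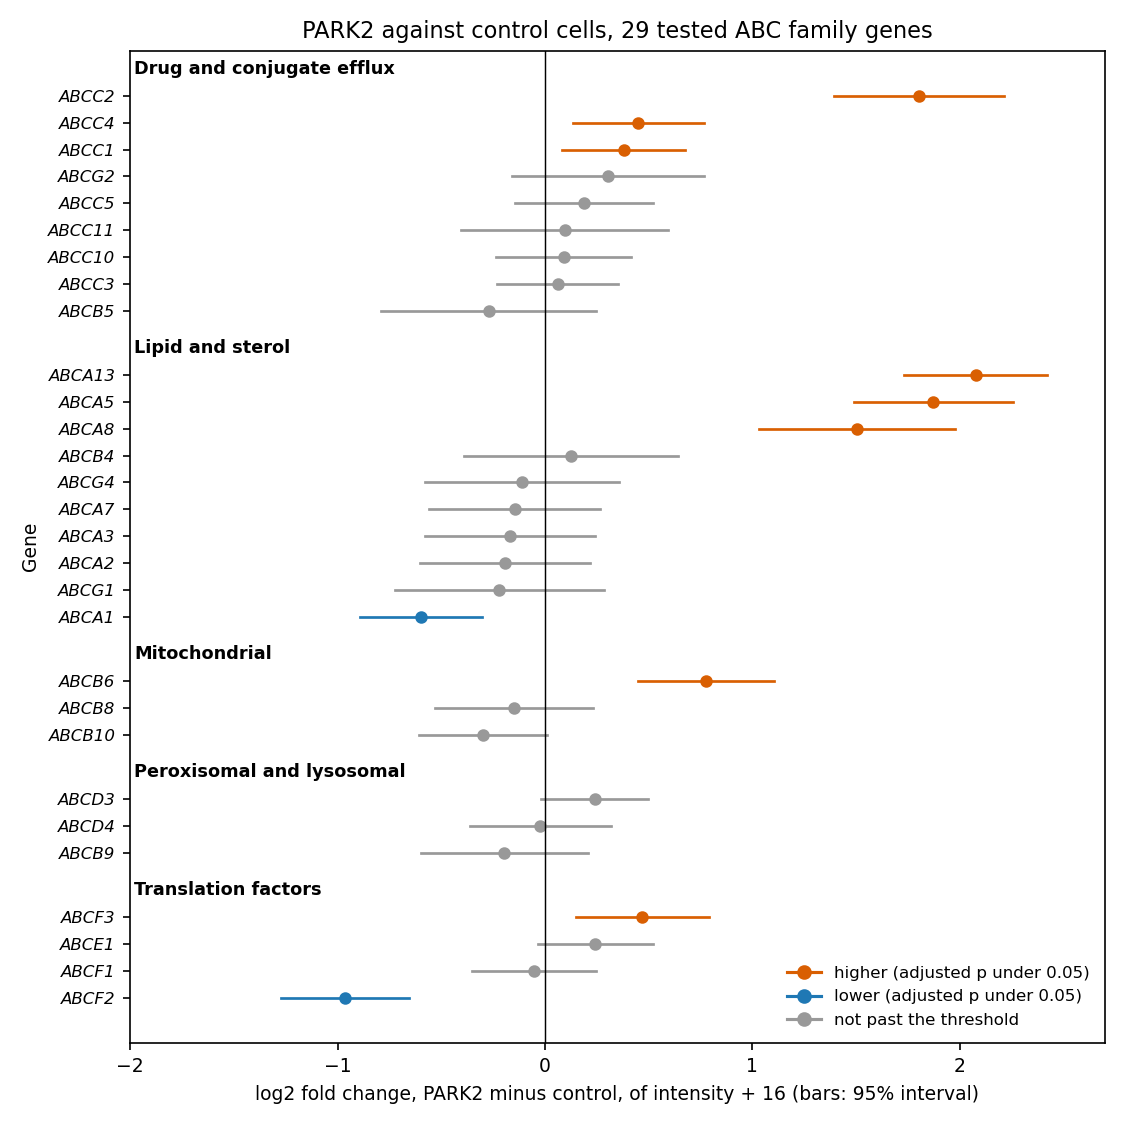
Log2 fold change (PARK2 minus control, of intensity plus 16) of the 29 tested members on the x axis, with the 95% confidence interval of the limma fit as bars, grouped by role and coloured by call. ABCA13, ABCA5, ABCC2 and ABCA8 lie above 1.5, ABCF2 and ABCA1 are the members called lower, and most of the others have intervals that cross 0.

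Among the drug and conjugate efflux pumps, 9 of 11 members were tested, with a median log2 fold change of 0.19. Of these, 3 were higher (33.3%, against 13.3% of all tested genes), none was lower (15.6% of all tested genes) and 6 did not pass. The 3 were ABCC2, ABCC4 and ABCC1, all of the C subfamily known as multidrug resistance proteins. Only ABCC2 stayed called with the replicate block, and without control replicate 2 or any 1 PARK2 replicate. Of all tested genes, 11.3% were called higher with the block and 8.8% to 10.7% in those fits without 1 array. The higher share of this class thus rests on calls that these fits lost. ABCC2 exports bilirubin glucuronides and other conjugates at the apical face of hepatocytes. Its intensity was 17.2, 13.7 and 9.53 in the control arrays and 73.3, 81.4 and 106.9 in the PARK2 arrays. Each PARK2 array was thus far above each control array, with means of 13.5 ± 3.83 and 87.2 ± 17.5 (SD, n = 3 each). The log2 fold change was 1.80 (SE 0.21, limma adjusted p = 5.9e-11), and its size depended on the constant added before taking logs: it was 2.62 with 1 and 0.96 with 64.

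ABCC4, a pump for cyclic nucleotides, prostaglandins and nucleotide analogue drugs, read 229.5, 238.2 and 244.8 in control and 320.9, 304.8 and 368.3 in PARK2 arrays. The groups were separate and differed by 0.45 (SE 0.16, limma adjusted p = 0.0238). ABCC1, which exports glutathione conjugates and leukotriene C4, read 613.4, 520.04 and 459.6 in control and 656.6, 715.8 and 702.7 in PARK2 arrays. The highest control array lay just under the lowest PARK2 array, and the difference was 0.38 (SE 0.15, limma adjusted p = 0.0458). Blocking on replicate number gave a limma adjusted p of 0.0676 for ABCC4 and 0.106 for ABCC1. ABCC1 also missed the threshold without control replicate 2 or 3 or any 1 PARK2 replicate (adjusted p 0.0797 to 0.195), and ABCC4 without control replicate 2 or any 1 PARK2 replicate (adjusted p 0.0581 to 0.179). Both missed it when the probe sets of each gene were averaged. ABCC1 missed it too without a filter (limma adjusted p = 0.0688) and with the filter at the 20th percentile. The same held with 1 added before taking logs and without the intensity trend.

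Of the efflux pumps that did not pass, 3 had a mean intensity of at least 100. ABCC3, a conjugate pump of liver and gut, read 660.9 ± 75.6 in control and 688.1 ± 45.2 in PARK2 cells (n = 3 each), a difference of 0.06 with a 95% interval of -0.23 to 0.35. ABCC10, which transports taxanes, read 283.3 ± 65.6 and 297.5 ± 13.1, a difference of 0.09 (interval -0.24 to 0.42). ABCC5, a cyclic nucleotide pump, read 155.3 ± 21.7 and 178.6 ± 14.5, a difference of 0.19 (interval -0.14 to 0.52). ABCG2, the breast cancer resistance protein, was dim: 14.5, 11.7 and 12.1 in control and 22.1, 19.7 and 16.9 in PARK2 arrays, separate groups whose difference of 0.30 (SE 0.23) did not pass (limma adjusted p = 0.369). ABCB5 and ABCC11 were dimmer still, with differences of -0.27 and 0.10 and groups that overlapped. ABCB1, the P-glycoprotein of the blood-brain barrier, and ABCC12 were under the limit for testing; ABCB1 read 5.09, 6.90 and 5.61 in control and 7.99, 7.73 and 8.35 in PARK2 arrays.

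The RefSeq promoters of ABCC2 and ABCC4 (GRCh38.p14, the 250 bases before the gene start) are shown because these pumps differ in base composition while both were higher in PARK2 cells. ABCC2 lies at chr10:99782390-99782639 on the plus strand and ABCC4 at chr13:95301452-95301701 on the minus strand. Each is written 5′ to 3′ in the direction of the gene, and capitals mark matches on either strand to 5 searched motifs: the antioxidant response element core TGACNNNGC, the GC box GGGCGG, the pentamer CCAAT, the E-box motif CACGTG and the TATA box letters TATAAA.
ABCC2: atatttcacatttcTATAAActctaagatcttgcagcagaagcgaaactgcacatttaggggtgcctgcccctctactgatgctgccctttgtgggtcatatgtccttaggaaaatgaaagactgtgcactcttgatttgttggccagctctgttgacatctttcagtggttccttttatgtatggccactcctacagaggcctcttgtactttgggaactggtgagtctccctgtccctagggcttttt
ABCC4: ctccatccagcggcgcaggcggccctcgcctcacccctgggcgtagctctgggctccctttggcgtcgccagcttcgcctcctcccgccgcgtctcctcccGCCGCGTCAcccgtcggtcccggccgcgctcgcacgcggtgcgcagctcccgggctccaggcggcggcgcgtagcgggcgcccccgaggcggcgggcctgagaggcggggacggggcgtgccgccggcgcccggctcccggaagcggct
The ABCC2 window held 1 CG dinucleotide and the ABCC4 window 42, against a median of 11 over 35116 promoter windows. ABCC4 had a match to TGACNNNGC on the reverse strand, 149 bases before the start, a motif found in 10.9% of all windows; ABCC2 had none, and its single match was TATAAA, 236 bases before the start and found in 10.7% of windows. A match is a description of the letters and not a binding site.

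**Figure D2:**
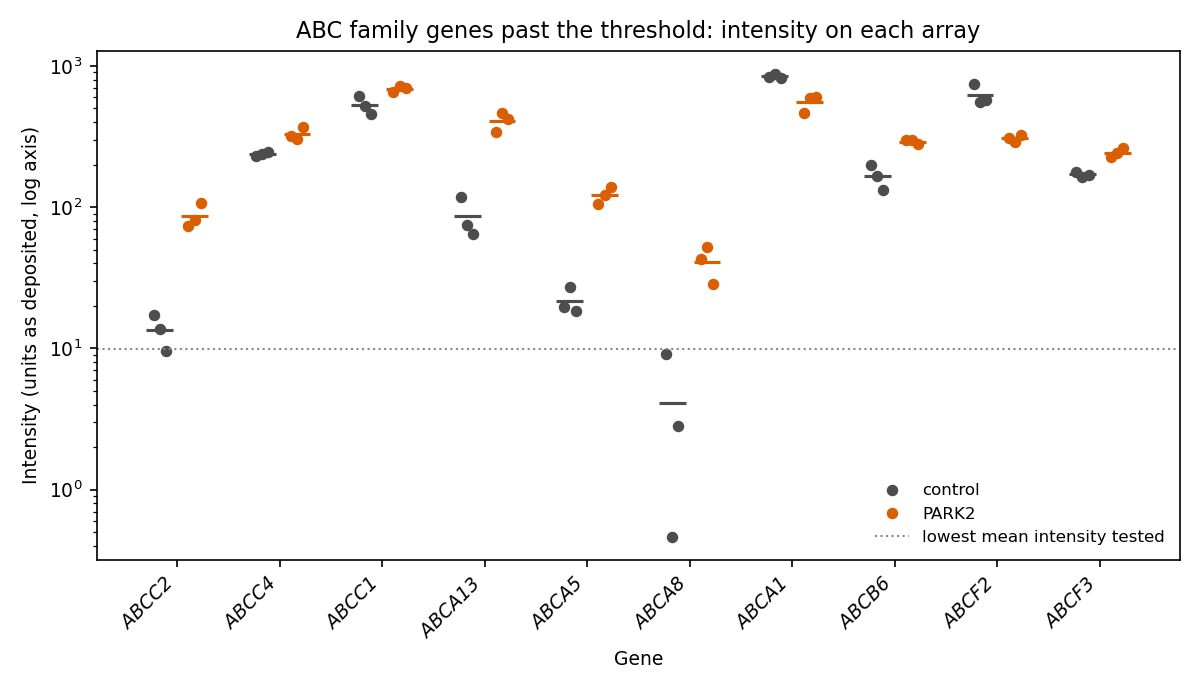
Intensity of the 10 called members in each of the 6 arrays on a log axis; each point is an array, each short line a group mean, and the dotted line the lowest mean intensity that was tested. The control and PARK2 points do not overlap for any of the 10, and the control mean of ABCA8 lies under the dotted line.

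Among the lipid, sterol and bile salt transporters, 10 of 17 members were tested. Of these, 3 were higher (30%, against 13.3% of all tested genes), 1 was lower (10%, against 15.6%) and 6 did not pass. The median log2 fold change of these members was -0.13, and 4 of the 10 values were positive. The 3 higher members include ABCA8, which was tested only through its PARK2 arrays, as its control mean was under the limit. ABCA13, a very large member found in the nervous system and linked to cholesterol trafficking in vesicles, read 117.9, 75.2 and 65.0 in control and 339.3, 463.1 and 420.3 in PARK2 arrays. The lowest PARK2 array was well above the highest control array, and the means were 86.05 ± 28.1 and 407.6 ± 62.9 (n = 3 each). Its log2 fold change of 2.08 (SE 0.17, limma adjusted p = 5.6e-16) was the largest of the tested members with 16 added; with 1 added it was 2.27, under ABCA8 (3.42), ABCC2 (2.62) and ABCA5 (2.45).

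ABCA5 and ABCA8 belong to a cluster of A-subfamily genes on chromosome 17. ABCA5, a lysosomal and endosomal member linked to cholesterol handling, read 19.7, 27.3 and 18.4 in control and 105.7, 121.7 and 139.7 in PARK2 arrays. The groups were far apart, by 1.87 (SE 0.19, limma adjusted p = 1.4e-12). ABCA8, linked to cholesterol efflux and sphingomyelin production, read 9.14, 0.46 and 2.81 in control and 42.7, 52.4 and 28.4 in PARK2 arrays, a difference of 1.51 (SE 0.24, limma adjusted p = 5.0e-07). Its control mean lay below the limit for testing, so ABCA8 was tested only through its level in PARK2 cells, which had to differ. Its p is therefore no support for the count of members that rose; without a filter the limma adjusted p was 0.00126. In RefSeq order ABCA8 is followed by ABCA9, ABCA6, ABCA10 and ABCA5; ABCA6 read 6.90 ± 2.19 in control and 11.7 ± 2.69 in PARK2 cells, and ABCA9 read 4.64 ± 3.53 and 7.54 ± 7.68, both under the limit. ABCA10 was not analysed here.

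ABCA1, which loads cholesterol and phospholipid onto apolipoprotein A-I, was the lipid transporter that fell. It read 837.8, 878.5 and 816.7 in control and 467.9, 596.4 and 603.9 in PARK2 arrays. Every PARK2 array was below every control array, and the difference was -0.60 (SE 0.15, limma adjusted p = 0.000998). When all probe sets of each gene were averaged, the difference was -0.22 (limma adjusted p = 0.393); 2 of the 4 ABCA1 probe sets in that average were under the limit for testing. The tested members ABCA2, ABCA3, ABCA7, ABCB4, ABCG1 and ABCG4 had mean intensities under 100, differences of -0.22 to 0.12, and groups that overlapped.

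The promoters of ABCA13 (chr7:48171208-48171457, plus strand), ABCA5 (chr17:69327134-69327383, minus strand) and ABCA1 (chr9:104928156-104928405, minus strand) are shown, in the same form, because they belong to the called lipid transporters. ABCA8 and ABCC1 had no entry.
ABCA13: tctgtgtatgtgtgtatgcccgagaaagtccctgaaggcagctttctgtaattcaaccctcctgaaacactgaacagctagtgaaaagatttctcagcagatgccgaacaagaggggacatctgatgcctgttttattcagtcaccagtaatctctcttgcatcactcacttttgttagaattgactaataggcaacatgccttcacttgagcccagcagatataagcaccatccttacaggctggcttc
ABCA5: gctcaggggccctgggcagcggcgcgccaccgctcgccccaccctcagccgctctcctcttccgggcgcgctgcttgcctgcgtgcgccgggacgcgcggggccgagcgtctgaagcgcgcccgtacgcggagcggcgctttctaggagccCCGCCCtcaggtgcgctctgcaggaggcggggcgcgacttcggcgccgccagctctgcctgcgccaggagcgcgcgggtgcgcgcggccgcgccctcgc
ABCA1: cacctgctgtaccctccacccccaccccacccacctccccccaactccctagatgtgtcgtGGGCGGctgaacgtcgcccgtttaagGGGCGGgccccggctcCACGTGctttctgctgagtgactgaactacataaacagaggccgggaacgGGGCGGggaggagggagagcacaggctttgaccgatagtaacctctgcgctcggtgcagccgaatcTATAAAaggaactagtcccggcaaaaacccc
ABCA13 had 2 CG dinucleotides, ABCA1 had 16 and ABCA5 had 42, so the members that rose included windows under and over the median of 11. None of the 5 motifs was found in the ABCA13 window. ABCA5 held 1 GC box, 99 bases before the start and on the reverse strand, and 42.6% of all windows held that motif. ABCA1 held 3 GC boxes, an E-box (6.34% of windows) and TATAAA 31 bases before the start.

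All 3 mitochondrial members with a probe set were tested. ABCB6 was higher (33.3% of these members, against 13.3% of all tested genes), and ABCB10 and ABCB8 did not pass. ABCB6, a porphyrin transporter that also carries the Langereis blood group antigen, read 197.7, 166.7 and 131.7 in control and 297.5, 297.6 and 279.5 in PARK2 arrays. The PARK2 arrays lay close together above all control arrays, with a difference of 0.78 (SE 0.16, limma adjusted p = 0.000134). ABCB10, an inner membrane protein needed for heme synthesis in red cell precursors, read 509.7, 465.9 and 505.6 in control and 318.3, 444.9 and 444.5 in PARK2 arrays. The groups were separate in the lower direction, yet the difference of -0.30 did not pass (SE 0.16, limma adjusted p = 0.152, interval -0.61 to 0.01). ABCB8, an inner membrane protein linked to iron export, read 88.9 ± 33.3 and 76.3 ± 14.2 with overlapping groups.

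The ABCB6 promoter (chr2:219218959-219219208, minus strand) is shown because it held the most kinds of searched motif among the called members.
ABCB6: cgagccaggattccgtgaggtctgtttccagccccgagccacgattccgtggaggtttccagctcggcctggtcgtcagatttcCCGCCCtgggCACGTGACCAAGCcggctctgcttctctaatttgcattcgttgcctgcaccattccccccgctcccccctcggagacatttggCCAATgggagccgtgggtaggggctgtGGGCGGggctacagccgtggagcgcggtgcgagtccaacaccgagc
It contained 20 CG dinucleotides, a match to TGACNNNGC 152 bases before the start that overlapped an E-box beginning 156 bases before it, a CCAAT box 73 bases before it and 2 GC boxes. CCAAT was found in 32.0% of all windows.

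None of the 3 tested peroxisomal and lysosomal members passed, where 28.8% of all tested genes did. ABCD3, a major peroxisomal membrane protein that imports branched and dicarboxylic acyl-CoAs, read 1902, 1806 and 1693 in control and 1965, 2073 and 2365 in PARK2 arrays. The groups were separate in the higher direction with a difference of 0.24 (SE 0.13, limma adjusted p = 0.168). It passed under quantile normalization (0.30, adjusted p = 0.00511), under scaling by trimmed mean (0.27, adjusted p = 0.0134) and without control replicate 1 (0.28, adjusted p = 0.0336). ABCD4, which acts with LMBRD1 in lysosomal release of vitamin B12, read 156.3 ± 32.9 and 151.8 ± 3.30, a difference of -0.02 (interval -0.36 to 0.32). ABCB9, a lysosomal peptide transporter, was dimmer, with a difference of -0.20 and overlapping groups, and ABCD2 was under the limit.

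The 4 members that act in translation were all tested, and 1 fell (25%), 1 rose (25%) and 2 did not pass. Of all tested genes, 15.6% were lower and 13.3% higher. ABCF2, a ribosome-associated ATPase, read 742.6, 553.6 and 573.2 in control and 309.7, 291.02 and 326.1 in PARK2 arrays. Its PARK2 arrays were all well under its control arrays, with a difference of -0.97 (SE 0.15, limma adjusted p = 6.8e-07). ABCF3, linked to antiviral defence, read 178.4, 163.1 and 169.8 in control and 225.2, 241.1 and 261.3 in PARK2 arrays, separate groups with a difference of 0.47 (SE 0.16, limma adjusted p = 0.0211). The limma adjusted p of ABCF3 was 0.057 with the replicate block and 0.111, 0.0884 and 0.132 without control replicate 2, PARK2 replicate 2 and PARK2 replicate 3.

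ABCE1, the ribosome recycling factor, read 977.6, 923.5 and 917.5 in control and 1104, 1044 and 1204 in PARK2 arrays. These separate groups differed by 0.24 (SE 0.14, limma adjusted p = 0.196). ABCE1 passed under quantile normalization (0.27, adjusted p = 0.0197), under scaling by trimmed mean (0.27, adjusted p = 0.0214) and without control replicate 1 (0.27, adjusted p = 0.0407). ABCF1, a partner of initiation factor eIF2, read 595.1 ± 83.7 and 571.2 ± 43.2, a difference of -0.05 (interval -0.35 to 0.25).

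The 13 members under the limit had mean intensities of 2.02 to 9.31. They were ABCA4, ABCA6, ABCA9, ABCA12, ABCB1, ABCB11, ABCC8, ABCC9, ABCC12, ABCC13, ABCD2, ABCG5 and ABCG8. They include both sulfonylurea receptors (ABCC8 and ABCC9, subunits of ATP-sensitive potassium channels), the bile salt pump ABCB11, the sterol pair ABCG5 and ABCG8 and the pseudogene ABCC13. Fitted without a filter, their log2 fold changes ran from -0.34 to 0.27, none passed the limma threshold (lowest adjusted p 0.319), none had an unadjusted p under 0.05, and 15.2% of all 19775 genes passed in that fit. Just inside the limit were ABCB4 and ABCC11, with mean intensities of 10.6 and 10.4, and just outside were ABCA6 and ABCC9, with 9.31 and 7.23. ABCB4, ABCC11 and ABCA8 were above the limit through the PARK2 arrays, and ABCB5 and ABCG1 through the control arrays, as the mean of the other group lay under it.

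The other probe sets of the members served as a check on the brightest. In a fit of all 26603 probe sets above the limit, 20.4% were called, 9.1% higher and 11.3% lower. Of 40 other probe sets of tested members, 22 were above the limit; 1 was called higher and 4 lower. Of the other ABCA13 probe sets, 1 was also higher (1.39) and 1 stood at 0.19 and did not pass. Another ABCA1 probe set was lower (-0.71), as were 2 others of ABCF2 (-0.79 and -0.54). The other ABCC1 probe set stood at -0.05, and in this fit the brightest had an adjusted p of 0.0759. The other ABCC4 probe sets stood at -0.08 and 0.41 and did not pass. For ABCC5, a probe set that read 111.6 ± 29.6 in control and 65.04 ± 13.2 in PARK2 cells was lower (-0.64, SE 0.20, limma adjusted p = 0.0297), where the brightest stood at 0.19. The other ABCC3 probe sets above the limit stood at 0.32, -0.52 and 0.35 and did not pass, where the brightest stood at 0.06. Of the other ABCB9 probe sets, 1 stood at -0.55 with separate groups (limma adjusted p = 0.0827) and 1 at -0.03, and neither passed. ABCC2, ABCA5, ABCA8, ABCB6 and ABCF3 had no other probe set above the limit.

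**Figure D3:**
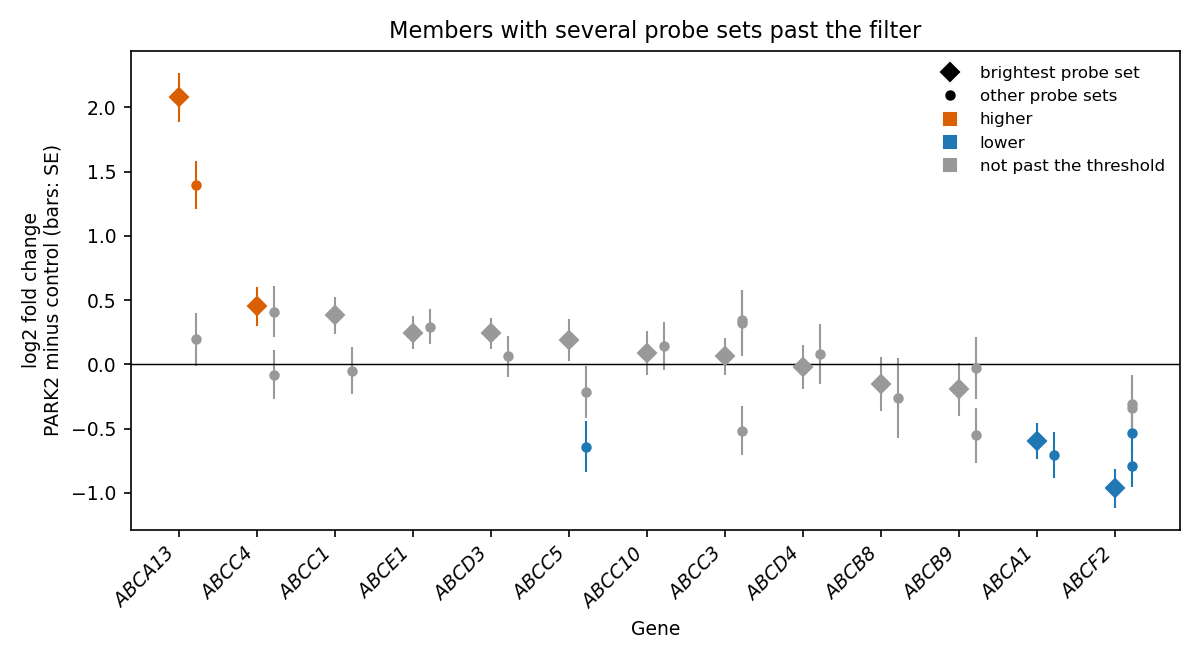
Log2 fold change (PARK2 minus control) of every probe set above the limit for members with more than 1, from the fit of all probe sets; the brightest probe set and the others are drawn with different markers, bars are standard errors, and colour marks the call. The probe sets of ABCF2 and ABCA1 lie below 0 and those of ABCA13 above 0. Those of ABCC5, ABCC1, ABCC4, ABCC3 and ABCD4 spread to both sides of 0.

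Genes next to the members on the chromosome were read to show what else moved there. For each member, the 10 nearest tested genes on either side in RefSeq order were taken, and their values are a description with no test. The counts called are to be read against the 13.3% of all tested genes called higher and the 15.6% called lower. ABCC2 stood at 1.80 where its 20 neighbours had a median of -0.34, with 7 called lower and none higher. ABCB6 stood at 0.78 against a median of -0.06, and ABCA1 at -0.60 against 0.25, with 9 neighbours called higher and none lower. ABCA13 stood at 2.08 against a median of 0.24, with 6 neighbours called higher, among them UPP1 next to it, and 3 lower. ABCA5 and ABCA8 shared most of their neighbours, each is among the neighbours of the other, and the median was -0.01 for both. For each of them 4 neighbours of 20 were called higher, counting the other member, and 3 lower, counts near the shares of all tested genes. MAP2K6 (0.62) and KCNJ2 (1.22), the tested genes that follow ABCA5, were among those called higher. ABCC1 stood at 0.38 against a median of -0.07, with 3 neighbours called higher, among them CEP20 (0.46) next to it, and 1 lower. ABCC4 stood at 0.45 against 0.05, with 2 higher and none lower. ABCF3 stood at 0.47 against 0.19, with 5 higher and 1 lower.

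ABCF2 lay on chromosome 7 among genes that were lower as well: 12 of its 20 neighbours were called lower, none was higher, and the median was -0.52. Of all tested genes 15.6% were called lower. After the median deviation of the neighbours in each array was subtracted from every gene, ABCF2 stood at -0.46 and still passed (limma adjusted p = 0.00237). ABCB8 lies in the same stretch, 6 tested genes away; 14 of its neighbours were called lower with a median of -0.65, and ABCB8 at -0.15 became 0.56 after the subtraction (limma adjusted p = 0.0263). With the same subtraction ABCC3 stood at 0.31 (limma adjusted p = 0.0152) and ABCB10 at -0.38 (limma adjusted p = 0.0382), and ABCF3 no longer passed (0.27, limma adjusted p = 0.102). DNA copy number of the lines was not measured, and its part in these values was not tested.

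**Figure D4:**
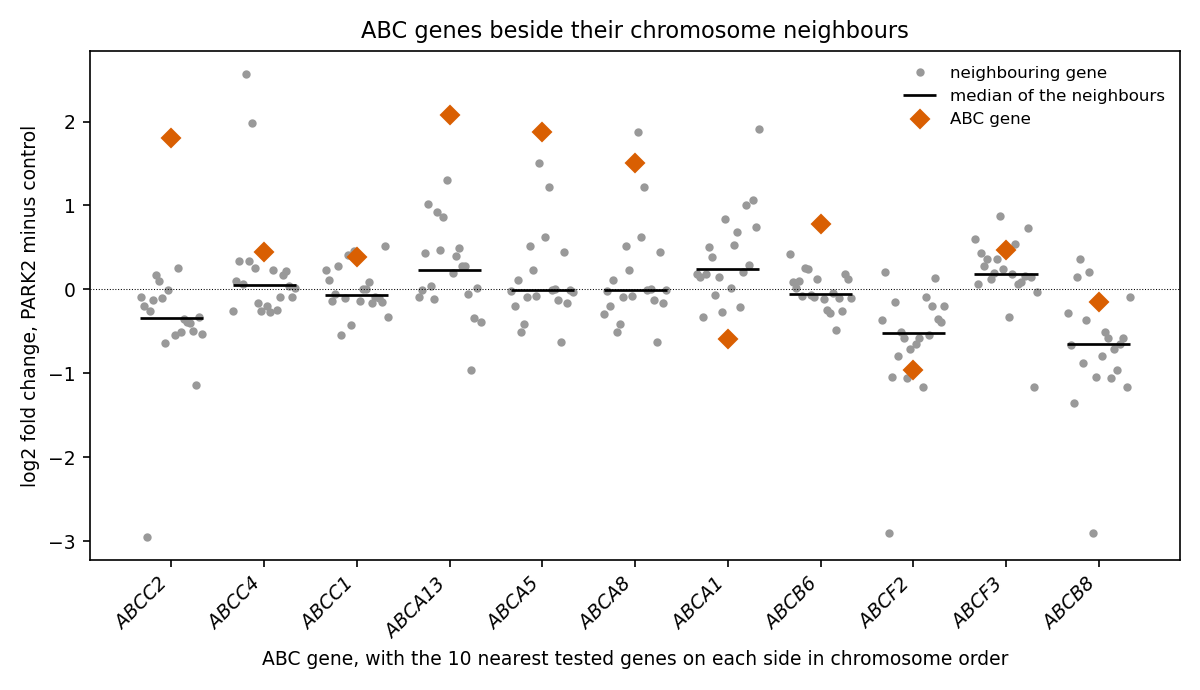
Log2 fold change (PARK2 minus control) of each called member and ABCB8 beside that of its 20 nearest tested genes; small points are neighbours, the bar is their median and the large marker is the member. The members ABCC2, ABCA13, ABCA5 and ABCB6 stand above all of their neighbours and ABCA1 below all of its own, whereas ABCF2 and ABCB8 have neighbours whose medians are -0.52 and -0.65.

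Genes that work with the transporters were counted in lists, to be read against the 13.3% of all tested genes called higher and 15.6% called lower. Of 21 tested genes of conjugation and glutathione synthesis, 5 were higher (23.8%) and 4 lower (19%). UGT8, whose known product is a myelin lipid and not a conjugate for export, went from 8.44 ± 2.71 to 371.3 ± 29.2; its control mean was under the limit, so it was tested only through the PARK2 arrays. GSTA4 was higher by 1.06 and GSTK1 was lower (-0.71). Of 8 tested organic ion carriers, 2 were higher (25%; SLC47A1, 1.92, and SLCO5A1, 1.15) and 3 lower (37.5%; among them SLCO4A1, -1.17). Of 12 tested transcription regulators of ABC genes, 2 were higher (16.7%) and none lower: NFE2L2, the activator that binds antioxidant response elements (0.38, limma adjusted p = 0.0257), and the coactivator PPARGC1A (0.54, limma adjusted p = 0.0474).

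Of 12 tested partners of cholesterol efflux beside ABCA1, 1 was higher (8.33%; MYLIP, the LDL receptor ligase, 1.44) and 3 lower (25%), among them the lysosomal exporter NPC1 (-0.66) and the HDL receptor SCARB1 (-0.53). Of 18 tested genes of iron-sulfur and heme synthesis, none was higher and 3 were lower (16.7%, near the share of all genes), namely ferrochelatase FECH (-0.64), GFER (-0.56) and the glycine carrier SLC25A38 (-0.50). Of 10 tested partners of the D subfamily 3 were higher (30%) and none was lower: the peroxisomal enzymes EHHADH (0.57) and HSD17B4 (0.45) and the lysosomal LMBRD1 (0.42). Of 13 tested translation partners 1 was higher (7.69%) and 3 lower (23.1%), GSPT2 (-1.09), EIF2S3 (-0.71) and EIF1AX (-0.70). The channel partners KCNJ8 and KCNJ11 were under the limit, like ABCC8 and ABCC9. Of the family members that carry other names, TAP2 was higher (0.44, limma adjusted p = 0.0227), TAP1 at -0.20 did not pass and CFTR was under the limit.

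**Figure D5:**
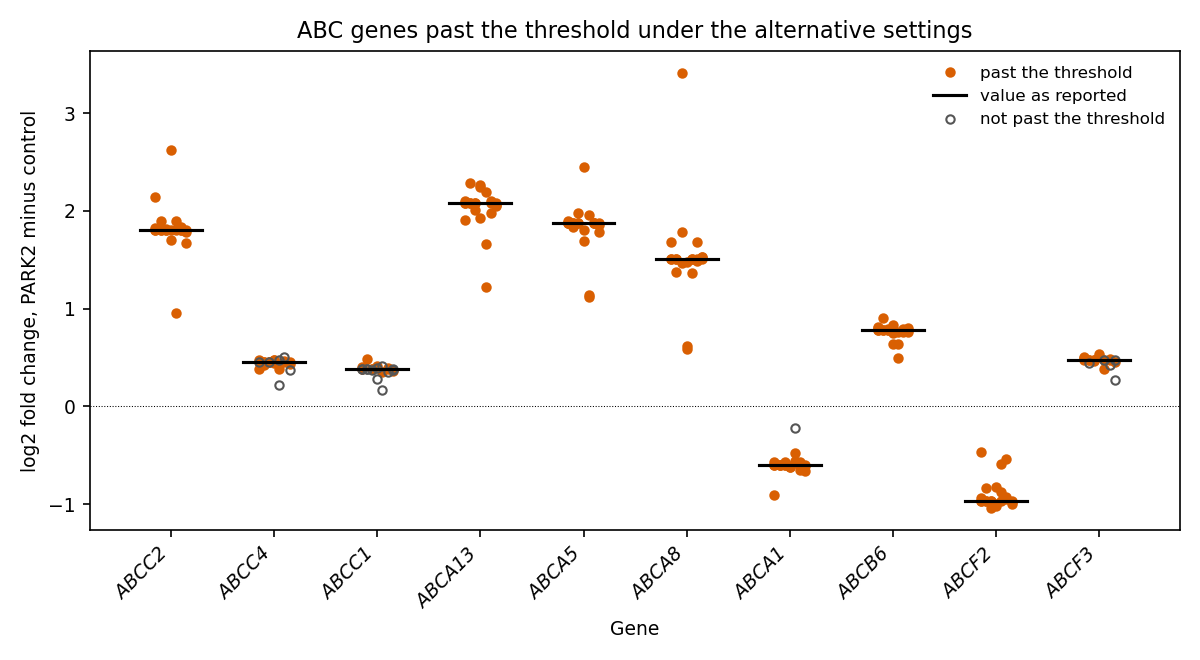
Log2 fold change (PARK2 minus control) of each called member under the main setting and each alternative way of processing; every point is an alternative, filled where it passed the threshold and open where it did not, and the line is the value reported. ABCC2, ABCA13, ABCA5, ABCB6 and ABCF2 passed in all 22 alternatives, and ABCA1, ABCC1, ABCC4 and ABCF3 have points that did not pass.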

How the data were processed

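The deposited values are one intensity per probe set and array, which the submitters' processing notes link to GCOS and MAS5; per the labels RNA was total RNA. The scaling the authors used and whether they applied a floor are not given in the sources used here, and no detection calls were used. Of 54675 probe sets, 62 controls were left out, 41091 named 1 gene in the platform annotation, 1801 named several and 11721 named none. Each gene was represented by the probe set with the highest mean of log2(intensity + 16), and genes whose mean was under the 40th percentile of all probe sets that are not controls (an intensity of 9.87) were not tested, which left 13720 of 19775 genes. The 6 arrays (3 PARK2, 3 control) were compared with limma 3.58.1 in R 4.3.3 (intensity trend, Benjamini-Hochberg adjustment, threshold 0.05), and 3 arrays a group limit the precision. The main fit added no scaling between arrays to the deposited values. With quantile normalization 19.3% of all tested genes were called higher, and with trimmed mean scaling 19.2%, against 13.3% in the main fit. The procedure was tested on simulated data.

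The members and lists were chosen with earlier results of these data known. Members past the threshold, and others with a mean intensity of at least 100, are named with their values. From each list up to 3 called genes with the largest change are named. The members are the 42 genes with a probe set naming no other gene, and 2 probe sets naming a member beside another gene were left out. Promoters came from RefSeq (GRCh38.p14), where 23 of 29 tested members had an entry. The level of PARK2 itself is not reported here.

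Deviations of arrays with the same replicate number, which comes from the labels, correlated at 0.40, 0.18 and 0.13 over 26603 probe sets, and at 0.17, 0.05 and 0.06 over 1 probe set per gene. The first set the rule, so the replicate number was also fitted as a block. Among unlike numbers over the 26603 probe sets, control 3 with PARK2 2 stood at 0.16 and control 2 with PARK2 3 at 0.11. The other unlike pairs ran from -0.28 to -0.20. Over 1 probe set per gene, control 3 with PARK2 2 stood at 0.07. A pairing by number thus stood out for replicate 1 only. The other alternatives were filters, the added constant, scaling, how variances were modelled, weights per array, which probe set stood for a gene, leaving out each array, and subtracting the median deviation of chromosome neighbours.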

Additional observations from a re-analysis of the deposited data

How the results depend on the processing

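Across 22 alternatives the number of members called higher was 8 as reported and 6 to 11 in those that used every array without the replicate block. With the replicate block it was 5, and ABCC1, ABCC4 and ABCF3 were the members lost. Leaving out 1 array gave 5 to 10 higher and 2 lower, and 5 without control replicate 2, PARK2 replicate 2 or PARK2 replicate 3. The share of all tested genes called higher moved too, from 13.3% as reported to 11.3% with the block. It was 7.08% to 31.5% in the alternatives with every array and no block, and 8.8% to 20.5% without 1 array. The number of members called lower was 5 with array weights and 1 with the mean of the probe sets. Of all tested genes, 28.1% and 11.7% were called lower in those fits, against 15.6% as reported. Array weights added ABCA3 (-0.40, limma adjusted p = 0.00473), ABCB9 (-0.57), ABCG2 (0.35), ABCD3 and ABCE1, and ABCB4 turned from 0.12 to -0.40 (limma adjusted p = 0.0384); they called 4322 genes higher and 3854 lower, against 1818 and 2139, and their estimation stopped before it converged. ABCC5 turned from 0.19 to -0.64 when probe sets ending in _x_at and _s_at were left out, which replaces its brightest probe set. ABCB8 turned from -0.15 to 0.56 with the neighbour correction. ABCC2, ABCA13, ABCA5, ABCB6 and ABCF2 passed in all 22 alternatives. ABCA8 passed in all 21 that tested it, but its control mean was under the limit for testing. As it was tested in the main fit only through its PARK2 arrays, that tally is no support for the count of members that rose. ABCA1 passed in 21 of 22, ABCC4 in 16 of 22, ABCF3 in 16 of 21 and ABCC1 in 10 of 22, with adjusted p up to 0.464 for ABCC1. The share of higher genes among all calls was 45.9% as reported, 60.7% without control replicate 1 and 36.1% without control replicate 3. The cause was not tested. For members dim in the control arrays the size of the difference moved with the added constant: ABCA8 stood at 3.42 with 1 and 0.62 with 64.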
